A study of Mus musculus with 12 samples.

Results

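The cell cycle and DNA replication genes described here are 42 genes, chosen by name: the replicative helicase, replication and nucleotide enzymes, cyclins and the mitotic kinase Cdk1, cell cycle transcription factors, and the apparatus of mitosis. All 42 had a row in the table of 20347 genes. They were read in RNA-seq of whole brain hemispheres of male mice, 12 weeks old, in which an intraluminal filament had closed the left middle cerebral artery for 60 min, followed by 24 h of reperfusion. The 4 groups of 3 libraries were the ipsilateral (stroke side) and contralateral hemispheres of Lama4-/- mice and the same hemispheres of wild-type (WT) mice. Lama4 encodes the laminin α4 chain of vascular basement membranes, and the series' title concerns such laminins and the zonation of cerebral microvessels. All mice had the occlusion, so the contralateral hemisphere is the opposite side of a stroke brain and not a brain without stroke. Each library was a pool of 2 mice, as far as the labels say, perfused with PBS before the brain was taken without cerebellum and olfactory bulb. Washing and centrifugation steps were meant to clear blood and immune cells from the tissue. Ipsilateral and contralateral libraries of the same number were taken as hemispheres of one pool, since their values moved together. The labels do not say so, and some libraries of different genotypes, which share no mice, moved together as strongly. Neither a strain nor the way Lama4 was deleted is given in the sources used here.

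Total counts ran from 27537167 to 44113824 reads per library, and levels are given in CPM, counts scaled to a common total per library with edgeR's TMM factors. Before these factors are applied, 1 CPM rests on 27.5 to 44.1 reads. Lama4, the gene deleted, had 0.797, 0.219 and 0.583 CPM in the Lama4-/- ipsilateral and 0.337, 0.312 and 0.206 CPM in the Lama4-/- contralateral libraries, against 14.8, 14.7 and 14.5 CPM in the WT ipsilateral and 10.8, 7.47 and 9.27 CPM in the WT contralateral ones, so all 12 libraries matched the genotype in their labels. The neuron markers (8 genes) summed to between 4980 and 6780 CPM in every library. The cerebellar granule cell markers (3 genes) summed to between 18.8 and 29.8 CPM in every library. Of these, Cbln3 was at most 2.17 CPM and Gabra6 at most 0.604 CPM, so most of the sum came from the remaining gene.

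A cell that enters division first makes D-type cyclins, which with their kinases inactivate the retinoblastoma family and so free E2F transcription factors. E2F then drives the genes of S phase: the MCM helicase that opens the DNA, its loader, the sliding clamp and the enzymes that make nucleotides. A second wave of genes, driven by B-Myb and FoxM1 through an element called CHR, follows in G2 and builds the spindle, the kinetochores and the machinery of cytokinesis. In the adult brain neurons do not divide, whereas precursors of oligodendrocytes, neural stem cells, endothelial cells, microglia and, after injury, reactive astrocytes can.

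At 24 h the ipsilateral hemisphere held more RNA of most S phase members and of cyclin D1 in both genotypes, while most members of mitosis did not pass the test. By edgeR's quasi-likelihood test with Benjamini-Hochberg adjustment over all 15351 genes tested, 14 of the 42 members rose and 1 fell in the ipsilateral hemisphere of Lama4-/- mice, where 12.8% of all genes were called higher and 10.5% lower at an adjusted p under 0.05. In WT mice 14 of 42 rose and 0 fell, where 9.91% of all genes were called higher and 5.47% lower. Called higher were thus 33.3% of the members in each genotype, a larger share than over all genes. The members were chosen with earlier results of these data known, so this larger share is a description and not a test. With DESeq2 16 members were called in Lama4-/- and 13 in WT, beside 26.2% and 19.3% of all genes. At an unadjusted p under 0.05 stood 20 members in Lama4-/- and 18 in WT, beside 36.0% and 29.5% of all genes. The median log2 fold change of the 42 members was 0.28 in Lama4-/- and 0.30 in WT, beside -0.01 and 0.01 over all genes tested. Most members thus leaned the same way, called or not: fitted changes were above 0 for 36 members in Lama4-/- and 35 in WT, beside 48.8% and 51.2% of all genes. In bulk tissue more cells of a type and more RNA per cell cannot be told apart, nor fewer cells and less RNA.

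Of the 18 members called higher in either genotype, 10 were called in both: Ccnd1, Mcm2, Mcm3, Mcm4, Mcm5, Mcm6, Tyms, Hells, Uhrf1 and Chek1. Mki67, Top2a, Cdk1 and Ccna2 were called higher in Lama4-/- and not in WT, and Mcm7, Pcna, Tpx2 and Cdc6 in WT and not in Lama4-/-. This split rests on the fit without pairing: with the pool as a replicate block, Pcna and Cdc6 were also called in Lama4-/-, and Top2a, E2f1 and Foxm1 in WT. In that fit 17 members were called in each genotype, beside 32.0% of all genes in Lama4-/- and 23.5% in WT. Ccne1 was called lower in Lama4-/- and not in WT. In the fit without pairing the remaining 23 members were called in neither genotype. The calls lay unevenly over the roles: of the MCM helicase 5 of 6 subunits rose in Lama4-/- and 6 of 6 in WT. Of the 9 mitotic kinases, kinetochore and checkpoint genes 0 were called in either genotype, also with DESeq2 or limma voom. The unadjusted p was under 0.05 for 1 of these 9 in Lama4-/- and 0 in WT. Over all genes 12.8% were called higher in Lama4-/- and 9.91% in WT, so 0 of 9 is near the share over all genes. Among the 9, Bub1 and Aurkb rest on 3 to 15 and 5 to 15 reads a library.

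**Figure D1:**
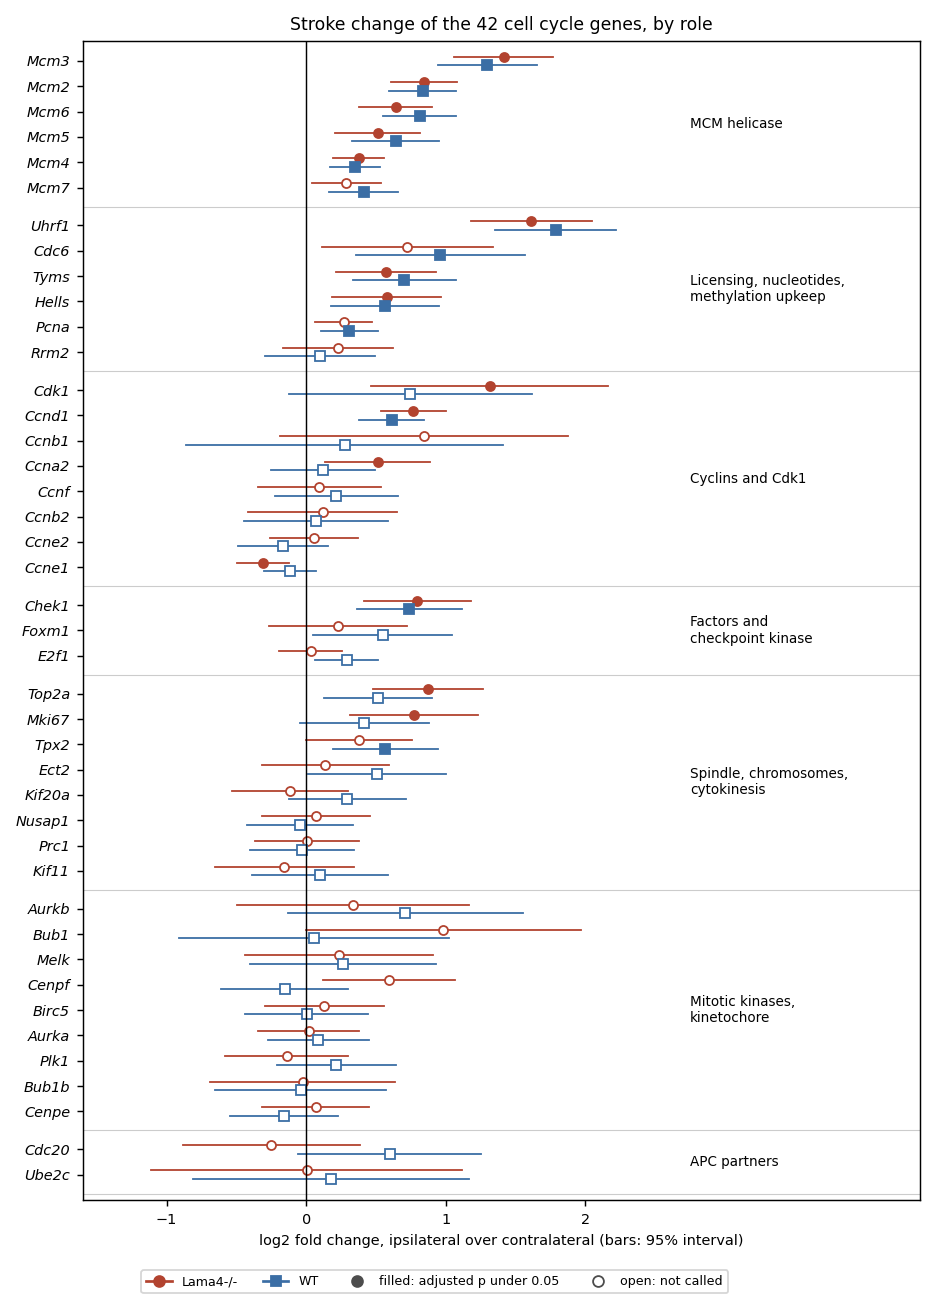
Log2 fold change of the ipsilateral over the contralateral hemisphere for the 42 members, grouped by role, with 95% intervals from the fit on 12 libraries (circles, Lama4-/-; squares, WT; filled, adjusted p under 0.05). The MCM subunits all lie right of 0, from 0.29 to 1.42 in Lama4-/- and from 0.35 to 1.30 in WT, and all symbols of the mitotic kinase and kinetochore group are open.

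Since most of the S phase members rose, the members' promoters were read for the elements through which E2F and the G2 wave act. RefSeq promoters (build GRCm38.p6; 250 bases before to 50 bases after a start) were matched by symbol for 34 of the 42 members. The E2F words searched were TTTCCCGC, TTTCGCGC, TTTGCCGC and TTTGGCGC and the CHR word was TTTGAA, each on both strands; overlapping matches were counted apart. Shown are Mcm3, Mcm6 and Mcm5, which rose and hold E2F words, Cdk1, which holds both elements, and Cdc20, which was not called and holds a CHR word. Capitals mark the matches. The windows are chr1:20820263-20820562, minus strand, for Mcm3, chr1:128359656-128359955, minus strand, for Mcm6, chr8:75109259-75109558, plus strand, for Mcm5, chr10:69352863-69353162, minus strand, for Cdk1, and chr4:118437294-118437593, minus strand, for Cdc20.
Mcm3: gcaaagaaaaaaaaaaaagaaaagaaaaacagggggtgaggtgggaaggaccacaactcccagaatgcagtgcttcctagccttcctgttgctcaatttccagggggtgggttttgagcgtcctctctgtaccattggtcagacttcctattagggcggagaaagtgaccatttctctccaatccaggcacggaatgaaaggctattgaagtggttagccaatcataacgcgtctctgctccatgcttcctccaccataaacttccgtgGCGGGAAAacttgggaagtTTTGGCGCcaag
Mcm6: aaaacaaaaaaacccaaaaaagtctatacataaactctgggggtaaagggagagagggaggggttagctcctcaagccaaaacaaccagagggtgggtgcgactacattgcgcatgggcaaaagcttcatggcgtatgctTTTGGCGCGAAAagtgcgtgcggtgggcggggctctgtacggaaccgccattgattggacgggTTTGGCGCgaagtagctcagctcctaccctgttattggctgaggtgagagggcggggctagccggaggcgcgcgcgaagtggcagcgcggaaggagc
Mcm5: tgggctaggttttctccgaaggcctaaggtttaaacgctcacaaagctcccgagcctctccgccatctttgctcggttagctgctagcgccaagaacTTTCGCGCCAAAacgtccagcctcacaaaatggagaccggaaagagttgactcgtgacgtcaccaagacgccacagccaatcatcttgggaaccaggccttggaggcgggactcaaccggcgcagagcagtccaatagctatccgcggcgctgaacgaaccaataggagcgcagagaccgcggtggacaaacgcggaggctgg
Cdk1: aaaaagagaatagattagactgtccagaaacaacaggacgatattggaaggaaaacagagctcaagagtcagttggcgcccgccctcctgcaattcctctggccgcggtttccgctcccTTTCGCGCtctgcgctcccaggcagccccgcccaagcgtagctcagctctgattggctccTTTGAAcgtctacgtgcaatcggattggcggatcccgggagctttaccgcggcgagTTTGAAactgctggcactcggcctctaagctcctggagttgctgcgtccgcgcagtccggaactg
Cdc20: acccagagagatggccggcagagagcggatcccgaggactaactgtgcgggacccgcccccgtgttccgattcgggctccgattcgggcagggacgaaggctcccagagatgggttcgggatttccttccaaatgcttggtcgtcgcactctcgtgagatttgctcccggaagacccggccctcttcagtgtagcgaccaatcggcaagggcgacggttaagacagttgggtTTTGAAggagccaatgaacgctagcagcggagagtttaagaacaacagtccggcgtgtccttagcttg

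Counted from the start, with -1 the last base before it, the leftmost bases of the E2F words lie at 20 and 39 in Mcm3, at -110, -106 and -47 in Mcm6, at -153 and -149 in Mcm5 and at -131 in Cdk1. In Mcm6 and Mcm5 a pair of words on opposite strands overlaps, which gives a longer run of capitals. The CHR words lie at -71 and -15 in Cdk1 and at -18 in Cdc20. An E2F word was present in 8 of the 14 matched members that were called higher in either genotype (Cdc6, Cdk1, Hells, Mcm3, Mcm5, Mcm6, Mcm7 and, at the second of its 2 starts, Uhrf1) and in 0 of the 20 that were not. Over all 27025 genes with such a promoter the share was 2.6%. A CHR word was present in 4 of these 14 members and in 11 of the 20 others, beside 20.2% of all genes. The words searched were chosen with the calls known, and a match is a stretch of letters and not a bound site. Mcm2, Tyms, Pcna, Chek1, Mki67 and Top2a were called higher in either genotype without an E2F word in this window. Of these, Mcm2, Mki67 and Top2a hold CHR words. The windows of E2f1, Chek1 and Cdc6, among others, do not reach the start of the gene in the GENCODE vM21 annotation of mm10. Words nearer that start could thus be missed. The Chek1 window ends inside a possible TTTCCCGC word on the other strand, so a match there could not be counted.

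**Figure D2:**
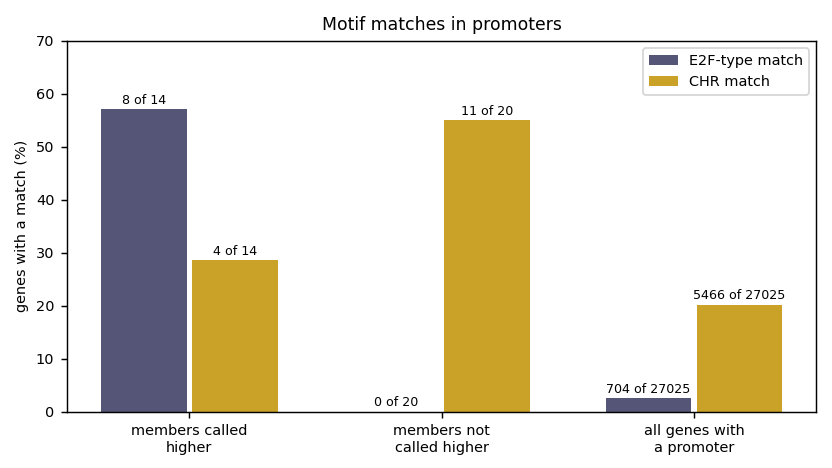
Share of genes (%) with at least 1 E2F-type or CHR match in the 300-base promoter window, for matched members called higher in either genotype, matched members not called higher, and all genes with a promoter. E2F-type matches stand in 8 of 14 members called higher and 0 of 20 not called higher; CHR matches stand in 4 of 14 and 11 of 20.

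The 6 MCM subunits form the ring-shaped helicase that is loaded onto replication origins in G1 and unwinds DNA in S phase. Their median log2 fold change was 0.58 in Lama4-/- and 0.73 in WT. Mcm3, a subunit of the ring whose promoter holds 2 E2F words, had 8.89, 7.68 and 7.91 CPM in the Lama4-/- ipsilateral hemispheres, against 2.6, 2.84 and 3.81 CPM in the Lama4-/- contralateral ones. It had 7.12, 6.95 and 9.22 CPM in the WT ipsilateral hemispheres, against 2.74, 3.21 and 3.49 CPM in the WT contralateral ones. No ipsilateral library of either genotype fell within the contralateral range, and the lowest ipsilateral value, 6.95 CPM, was above the highest contralateral one, 3.81 CPM. Mcm3 thus had a log2 fold change of 1.42 ± 0.16 in Lama4-/- (edgeR adjusted p = 6.92e-05) and 1.30 ± 0.16 in WT (edgeR adjusted p = 0.000189).

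Mcm2, another subunit, had 9.73, 9.79 and 9.60 CPM in the Lama4-/- ipsilateral hemispheres, against 4.91, 5.46 and 5.88 CPM in the Lama4-/- contralateral ones. It had 8.51, 8.64 and 9.14 CPM in the WT ipsilateral hemispheres, against 5.60, 4.49 and 4.61 CPM in the WT contralateral ones. The libraries of the 2 hemispheres did not overlap in either genotype, and the log2 fold change was 0.85 ± 0.11 in Lama4-/- (edgeR adjusted p = 0.000157) and 0.84 ± 0.11 in WT (edgeR adjusted p = 0.00027). Mcm6, with 3 E2F words, had 16.8, 17.3 and 15.9 CPM in the Lama4-/- ipsilateral hemispheres, against 11.0, 10.7 and 10.3 CPM in the Lama4-/- contralateral ones. It had 19.0, 15.1 and 22.7 CPM in the WT ipsilateral hemispheres, against 10.4, 11.0 and 10.9 CPM in the WT contralateral ones. Here the Lama4-/- ipsilateral libraries lay close together and the WT ipsilateral ones spread widely, with WT library 3 the highest of all. The fitted change of Mcm6 was 0.64 ± 0.12 in Lama4-/- (edgeR adjusted p = 0.00208) and 0.81 ± 0.12 in WT (edgeR adjusted p = 0.000572) on the log2 scale.

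The changes of the other subunits were smaller. Mcm5 had 10.6, 7.30 and 8.47 CPM in the Lama4-/- ipsilateral hemispheres, against 6.23, 5.67 and 6.67 CPM in the Lama4-/- contralateral ones. It had 9.20, 7.26 and 9.14 CPM in the WT ipsilateral hemispheres, against 5.43, 5.20 and 5.76 CPM in the WT contralateral ones. The hemispheres did not overlap, with Lama4-/- ipsilateral library 1 well above the other 2 of its group. Mcm5, with its overlapping E2F words, had a log2 fold change of 0.51 ± 0.14 in Lama4-/- (edgeR adjusted p = 0.0195) and 0.64 ± 0.14 in WT (edgeR adjusted p = 0.00903); the Lama4-/- call was lost without Lama4-/- ipsilateral library 1 (edgeR adjusted p = 0.107) or contralateral library 2 (0.0747).

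Mcm4 had 21.8, 19.3 and 18.9 CPM in the Lama4-/- ipsilateral hemispheres, against 16.4, 15.8 and 14.0 CPM in the Lama4-/- contralateral ones. It had 18.6, 18.7 and 19.6 CPM in the WT ipsilateral hemispheres, against 15.3, 14.9 and 14.5 CPM in the WT contralateral ones. The libraries of the hemispheres did not overlap, and the log2 fold change was 0.37 ± 0.08 in Lama4-/- (edgeR adjusted p = 0.00598) and 0.35 ± 0.08 in WT (edgeR adjusted p = 0.0133). The WT call was lost without WT ipsilateral library 3 (adjusted p = 0.0513) or contralateral library 3 (0.0628).

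Mcm7 had 20.9, 15.0 and 18.4 CPM in the Lama4-/- ipsilateral hemispheres, against 15.1, 14.7 and 14.7 CPM in the Lama4-/- contralateral ones. It had 17.5, 16.5 and 19.6 CPM in the WT ipsilateral hemispheres, against 12.0, 14.1 and 14.3 CPM in the WT contralateral ones. Lama4-/- ipsilateral library 2 lay within the contralateral range, while the WT hemispheres did not overlap. For Mcm7 the log2 fold change was 0.29 ± 0.12 in Lama4-/- (edgeR adjusted p = 0.09) and 0.41 ± 0.12 in WT (edgeR adjusted p = 0.0298). In Lama4-/- Mcm7 was called without ipsilateral library 2 (adjusted p = 0.0183); in WT the call held without ipsilateral library 2 (0.0381) and was lost without any other single library (0.0572 to 0.113).

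Uhrf1 had the largest log2 fold change of the 42 members in each genotype. It reads hemimethylated DNA behind the replication fork and brings the maintenance methyltransferase there. Uhrf1 had 2.61, 2.30 and 2.98 CPM in the Lama4-/- ipsilateral hemispheres, against 0.934, 0.721 and 0.928 CPM in the Lama4-/- contralateral ones. It had 3.43, 2.36 and 3.00 CPM in the WT ipsilateral hemispheres, against 0.809, 0.754 and 0.955 CPM in the WT contralateral ones. All 6 ipsilateral libraries lay above 2 CPM and all 6 contralateral ones below 1 CPM. Uhrf1 thus had a log2 fold change of 1.61 ± 0.20 in Lama4-/- (edgeR adjusted p = 0.000117) and 1.79 ± 0.20 in WT (edgeR adjusted p = 8.1e-05). Within each pool the ipsilateral level was 2.79, 3.20 and 3.21 times the contralateral one in Lama4-/-, and 4.24, 3.13 and 3.14 times in WT.

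Hells, a chromatin remodeller needed for normal DNA methylation, had 3.96, 2.96 and 4.88 CPM in the Lama4-/- ipsilateral hemispheres, against 2.62, 2.26 and 3.06 CPM in the Lama4-/- contralateral ones. It had 4.04, 3.80 and 4.53 CPM in the WT ipsilateral hemispheres, against 2.86, 2.6 and 2.87 CPM in the WT contralateral ones. Lama4-/- ipsilateral library 2 overlapped the contralateral range, and the WT hemispheres did not overlap. The fitted change of Hells was 0.58 ± 0.18 in Lama4-/- (edgeR adjusted p = 0.0335) and 0.57 ± 0.18 in WT (edgeR adjusted p = 0.0478) on the log2 scale. These calls lay close to the threshold: in Lama4-/- the call was lost without ipsilateral library 1 or 3 or contralateral library 1 or 2 (adjusted p = 0.0861, 0.125, 0.0697 and 0.128), and in WT without any one library (0.0692 to 0.142).

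Tyms, thymidylate synthase, which makes the thymidine nucleotide of DNA, had 1.93, 2.28 and 1.99 CPM in the Lama4-/- ipsilateral hemispheres, against 1.48, 1.23 and 1.48 CPM in the Lama4-/- contralateral ones. It had 1.85, 2.03 and 1.77 CPM in the WT ipsilateral hemispheres, against 1.01, 1.24 and 1.21 CPM in the WT contralateral ones. Neither genotype showed overlap between its hemispheres. For Tyms the log2 fold change was 0.57 ± 0.17 in Lama4-/- (edgeR adjusted p = 0.0234) and 0.70 ± 0.17 in WT (edgeR adjusted p = 0.0138). Adjusted p was 0.0759 without Lama4-/- ipsilateral library 2 and 0.0931 without Lama4-/- contralateral library 2, and in WT 0.0526 without ipsilateral library 2 and 0.0601 without contralateral library 1. Rrm2, the small subunit of ribonucleotide reductase, averaged 1.79 ± 0.166 CPM in Lama4-/- ipsilateral and 1.54 ± 0.145 CPM in Lama4-/- contralateral libraries (SD, n = 3 each), with overlapping libraries. In WT it averaged 1.74 ± 0.306 CPM in ipsilateral and 1.62 ± 0.210 CPM in contralateral libraries, and it was called in neither genotype.

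Pcna, the sliding clamp that holds DNA polymerase on its template, had 37.8, 38.7 and 34.1 CPM in the Lama4-/- ipsilateral hemispheres, against 28.4, 34.6 and 28.8 CPM in the Lama4-/- contralateral ones. It had 32.8, 38.4 and 36.7 CPM in the WT ipsilateral hemispheres, against 27.2, 31.8 and 28.1 CPM in the WT contralateral ones. The Lama4-/- hemispheres overlapped slightly, the WT ones did not. Pcna thus had a log2 fold change of 0.27 ± 0.10 in Lama4-/- (edgeR adjusted p = 0.0582) and 0.31 ± 0.10 in WT (edgeR adjusted p = 0.0439). With the pool of mice as a replicate block Pcna was called in Lama4-/- too (adjusted p = 0.0105), as it was without Lama4-/- ipsilateral library 3 (0.0382) or contralateral library 2 (0.0193). In WT its call was lost without ipsilateral library 2 or 3 or contralateral library 1 or 3 (0.152, 0.114, 0.143 and 0.144).

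Cdc6 helps to load the helicase onto origins. It had 0.700, 0.878 and 0.920 CPM in the Lama4-/- ipsilateral hemispheres, against 0.519, 0.553 and 0.412 CPM in the Lama4-/- contralateral ones. It had 1.16, 0.619 and 1.10 CPM in the WT ipsilateral hemispheres, against 0.491, 0.377 and 0.582 CPM in the WT contralateral ones. The hemispheres did not overlap in either genotype, although the values rest on only 10 to 47 reads. The fitted change of Cdc6 was 0.72 ± 0.28 in Lama4-/- (edgeR adjusted p = 0.083) and 0.96 ± 0.28 in WT (edgeR adjusted p = 0.0347) on the log2 scale. With the pool as a replicate block Cdc6 was called in Lama4-/- too (adjusted p = 0.0466). The WT call held without ipsilateral library 2 (0.0119) and was lost without any other library (0.0599 to 0.131).

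**Figure D3:**
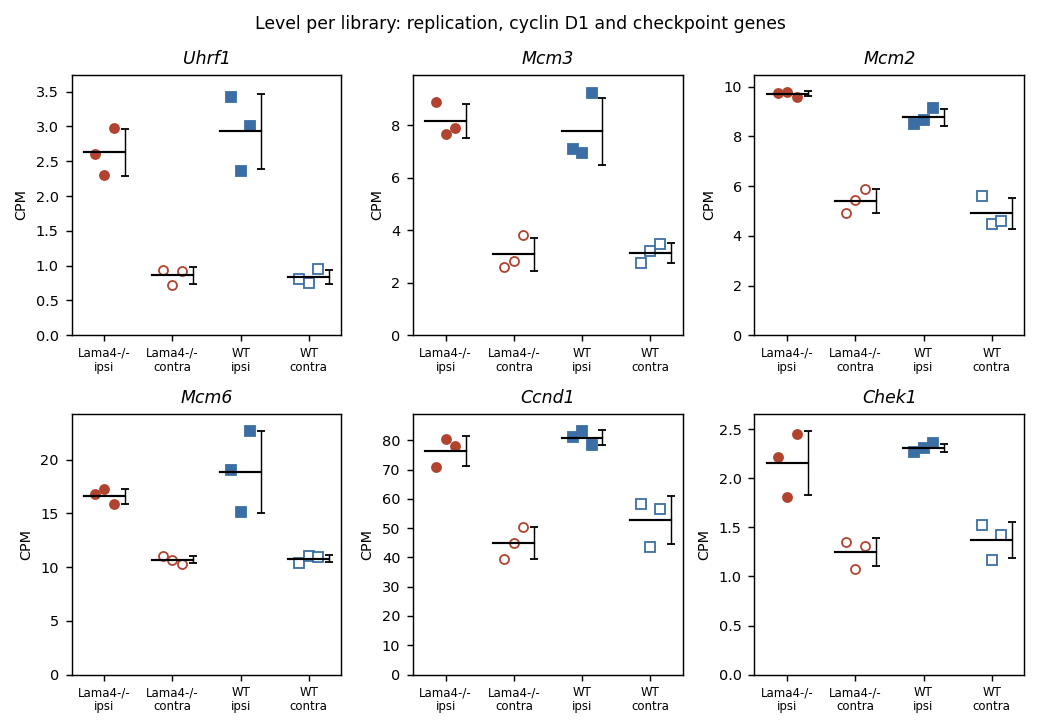
Level in CPM per library of Uhrf1, Mcm3, Mcm2, Mcm6, Ccnd1 and Chek1 (circles, Lama4-/-; squares, WT; filled, ipsilateral; open, contralateral; bar, mean; whisker, SD of 3 libraries). In each of the 6 genes every ipsilateral library lies above every contralateral library of its genotype.

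Ccnd1, cyclin D1, activates Cdk4 and Cdk6 in G1 and is made in answer to growth signals. It had 70.8, 80.3 and 78.2 CPM in the Lama4-/- ipsilateral hemispheres, against 39.3, 45.0 and 50.3 CPM in the Lama4-/- contralateral ones. It had 81.0, 83.3 and 78.3 CPM in the WT ipsilateral hemispheres, against 58.3, 43.5 and 56.5 CPM in the WT contralateral ones. The lowest ipsilateral library, at 70.8 CPM, stood above the highest contralateral one, at 58.3 CPM. For Ccnd1 the log2 fold change was 0.77 ± 0.11 in Lama4-/- (edgeR adjusted p = 0.000295) and 0.61 ± 0.11 in WT (edgeR adjusted p = 0.00198), and both calls held under every alternative run.

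Cyclin E binds Cdk2 at the start of S phase, and neither of its genes was called higher. Ccne1 had 15.1, 13.9 and 16.2 CPM in the Lama4-/- ipsilateral hemispheres, against 17.9, 18.3 and 19.8 CPM in the Lama4-/- contralateral ones. It had 18.3, 16.0 and 17.0 CPM in the WT ipsilateral hemispheres, against 19.8, 17.8 and 18.0 CPM in the WT contralateral ones. All Lama4-/- ipsilateral libraries lay below the Lama4-/- contralateral ones, while the WT hemispheres overlapped. Ccne1 thus had a log2 fold change of -0.31 ± 0.09 in Lama4-/- (edgeR adjusted p = 0.0208) and -0.12 ± 0.09 in WT (edgeR adjusted p = 0.417). The Lama4-/- call was lost without ipsilateral library 1 or 2 or contralateral library 3 (adjusted p = 0.0563, 0.0787 and 0.0798). Ccne2 averaged 4.39 ± 0.671 CPM in Lama4-/- ipsilateral and 4.22 ± 0.598 CPM in Lama4-/- contralateral libraries, and 3.92 ± 0.424 CPM in WT ipsilateral and 4.40 ± 0.0564 CPM in WT contralateral ones (SD, n = 3 each), with overlap in both genotypes.

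Ccna2, cyclin A2 of S phase and G2, had 2.90, 2.94 and 3.07 CPM in the Lama4-/- ipsilateral hemispheres, against 2.13, 2.38 and 1.68 CPM in the Lama4-/- contralateral ones. It had 2.69, 2.08 and 3.14 CPM in the WT ipsilateral hemispheres, against 2.34, 2.56 and 2.40 CPM in the WT contralateral ones. The Lama4-/- hemispheres did not overlap and the WT ones did. The fitted change of Ccna2 was 0.51 ± 0.17 in Lama4-/- (edgeR adjusted p = 0.0478) and 0.12 ± 0.17 in WT (edgeR adjusted p = 0.707) on the log2 scale. The Lama4-/- call held without contralateral library 2 (adjusted p = 0.0442) and was lost without any other single library (0.0800 to 0.162).

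Cdk1, the kinase that drives cells into mitosis and whose promoter holds both elements, had 0.435, 0.823 and 0.552 CPM in the Lama4-/- ipsilateral hemispheres, against 0.104, 0.288 and 0.344 CPM in the Lama4-/- contralateral ones. It had 0.518, 0.394 and 0.456 CPM in the WT ipsilateral hemispheres, against 0.347, 0.302 and 0.186 CPM in the WT contralateral ones. The hemispheres did not overlap in either genotype, but each value rests on 4 to 30 reads. For Cdk1 the log2 fold change was 1.31 ± 0.40 in Lama4-/- (edgeR adjusted p = 0.0279) and 0.74 ± 0.40 in WT (edgeR adjusted p = 0.243). The Lama4-/- call was lost without ipsilateral library 2 (adjusted p = 0.114) or contralateral library 1 (0.0933) or 2 (0.0511). Of its mitotic partners, Ccnb1 (cyclin B1) had 0.362, 0.302 and 0.276 CPM in the Lama4-/- ipsilateral hemispheres, against 0.130, 0.192 and 0.206 CPM in the Lama4-/- contralateral ones. It had 0.247, 0.253 and 0.107 CPM in the WT ipsilateral hemispheres, against 0.231, 0.264 and 0.0466 CPM in the WT contralateral ones. The Lama4-/- hemispheres did not overlap, on 5 to 15 reads in the Lama4-/- libraries, and the log2 fold change was 0.84 ± 0.48 in Lama4-/- (edgeR adjusted p = 0.226) and 0.28 ± 0.53 in WT (edgeR adjusted p = 0.781).

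Ccnb2 (cyclin B2) and Ccnf (cyclin F, which marks proteins for degradation) overlapped between hemispheres in both genotypes. Ccnb2 averaged 0.918 ± 0.0779 CPM in Lama4-/- ipsilateral and 0.846 ± 0.106 CPM in Lama4-/- contralateral libraries, and 1.07 ± 0.316 CPM in WT ipsilateral and 1.03 ± 0.155 CPM in WT contralateral ones (SD, n = 3 each). The 95% interval of its log2 fold change ran from -0.41 to 0.65 in Lama4-/- and from -0.44 to 0.58 in WT.

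Chek1, the kinase that halts the cycle when replication stalls, rose with the replication genes. It had 2.22, 1.81 and 2.45 CPM in the Lama4-/- ipsilateral hemispheres, against 1.35, 1.08 and 1.31 CPM in the Lama4-/- contralateral ones. It had 2.27, 2.31 and 2.36 CPM in the WT ipsilateral hemispheres, against 1.53, 1.17 and 1.42 CPM in the WT contralateral ones. Without overlap between hemispheres, the 3 WT ipsilateral values lay close together. Chek1 thus had a log2 fold change of 0.80 ± 0.18 in Lama4-/- (edgeR adjusted p = 0.00574) and 0.74 ± 0.17 in WT (edgeR adjusted p = 0.0117); the WT call was lost without WT contralateral library 2 (adjusted p = 0.052).

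E2f1, a factor that activates S phase genes, had 11.2, 9.99 and 10.9 CPM in the Lama4-/- ipsilateral hemispheres, against 11.4, 10.2 and 9.72 CPM in the Lama4-/- contralateral ones. It had 11.8, 10.4 and 12.2 CPM in the WT ipsilateral hemispheres, against 9.59, 8.37 and 10.1 CPM in the WT contralateral ones. The Lama4-/- hemispheres overlapped and the WT ones did not. The fitted change of E2f1 was 0.03 ± 0.10 in Lama4-/- (edgeR adjusted p = 0.858) and 0.29 ± 0.10 in WT (edgeR adjusted p = 0.0793) on the log2 scale. Foxm1, a factor of the G2 wave, had 2.56, 2.22 and 1.84 CPM in the Lama4-/- ipsilateral hemispheres, against 2.18, 2.21 and 1.20 CPM in the Lama4-/- contralateral ones. It had 2.86, 2.67 and 2.33 CPM in the WT ipsilateral hemispheres, against 1.65, 2.26 and 1.54 CPM in the WT contralateral ones. As for E2f1, only the WT hemispheres were free of overlap, and the log2 fold change was 0.23 ± 0.23 in Lama4-/- (edgeR adjusted p = 0.51) and 0.55 ± 0.23 in WT (edgeR adjusted p = 0.129). With the pool as a replicate block E2f1 (adjusted p = 0.0305) and Foxm1 (0.0439) were called in WT.

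Of the 8 genes of the spindle, chromosomes and cytokinesis, 2 rose in Lama4-/- and 1 in WT, where 12.8% and 9.91% of all genes were called higher. Top2a, the topoisomerase that untangles sister chromosomes, had 2.29, 2.06 and 2.24 CPM in the Lama4-/- ipsilateral hemispheres, against 1.14, 1.01 and 1.48 CPM in the Lama4-/- contralateral ones. It had 2.32, 1.94 and 2.17 CPM in the WT ipsilateral hemispheres, against 1.47, 1.28 and 1.70 CPM in the WT contralateral ones. Every ipsilateral library lay above the contralateral range of its genotype. For Top2a the log2 fold change was 0.88 ± 0.18 in Lama4-/- (edgeR adjusted p = 0.00407) and 0.52 ± 0.18 in WT (edgeR adjusted p = 0.0679), and with the pool as a replicate block the WT change passed too (adjusted p = 0.0444).

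Mki67, whose protein coats mitotic chromosomes and serves as the usual marker of cycling cells, had 2.99, 2.88 and 2.67 CPM in the Lama4-/- ipsilateral hemispheres, against 1.53, 1.42 and 2.10 CPM in the Lama4-/- contralateral ones. It had 2.74, 2.11 and 2.28 CPM in the WT ipsilateral hemispheres, against 2.37, 1.62 and 1.37 CPM in the WT contralateral ones. WT contralateral library 1 reached the WT ipsilateral range, whereas the Lama4-/- hemispheres did not overlap. Mki67 thus had a log2 fold change of 0.78 ± 0.21 in Lama4-/- (edgeR adjusted p = 0.0178) and 0.42 ± 0.21 in WT (edgeR adjusted p = 0.217). The Lama4-/- call was lost without ipsilateral library 1 or contralateral library 1 or 2 (adjusted p = 0.0612, 0.0553 and 0.0779).

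Tpx2, a spindle assembly factor that activates Aurora A, had 4.61, 3.32 and 3.99 CPM in the Lama4-/- ipsilateral hemispheres, against 3.30, 3.08 and 2.78 CPM in the Lama4-/- contralateral ones. It had 5.13, 4.16 and 4.53 CPM in the WT ipsilateral hemispheres, against 3.26, 2.34 and 3.63 CPM in the WT contralateral ones. The hemispheres did not overlap in either genotype, and the log2 fold change was 0.38 ± 0.18 in Lama4-/- (edgeR adjusted p = 0.138) and 0.57 ± 0.17 in WT (edgeR adjusted p = 0.0419). The WT call held without contralateral library 3 (adjusted p = 0.0430) and was lost without any other library (0.0545 to 0.144). The other 5 genes of this role, the motors Kif11 and Kif20a, the microtubule binders Nusap1 and Prc1 and the cytokinesis factor Ect2, were called in neither genotype. Their fitted log2 fold changes ran from -0.16 (Kif11) to 0.14 (Ect2) in Lama4-/- and from -0.04 (Nusap1) to 0.51 (Ect2) in WT.

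The mitotic kinases Aurka, Aurkb, Plk1, Bub1 and Melk, the checkpoint component Bub1b, the kinetochore proteins Cenpe and Cenpf and the chromosomal passenger Birc5 had a median log2 fold change of 0.13 in Lama4-/- and 0.06 in WT. Aurka, Aurora A of the spindle poles, averaged 2.21 ± 0.311 CPM in Lama4-/- ipsilateral and 2.17 ± 0.291 CPM in Lama4-/- contralateral libraries, and 2.40 ± 0.155 CPM in WT ipsilateral and 2.27 ± 0.298 CPM in WT contralateral ones (SD, n = 3 each). Its 95% interval, from -0.34 to 0.38 in Lama4-/- and from -0.27 to 0.45 in WT, left out the changes fitted for Mcm2 and Uhrf1. It held the smaller changes fitted for Mcm4 and Pcna. Some intervals of this role were wider: that of Melk, from -0.44 to 0.91 in Lama4-/- and from -0.40 to 0.93 in WT, held the change of Mcm2. Cenpf had 1.33, 0.933 and 1.01 CPM in the Lama4-/- ipsilateral hemispheres, against 0.623, 0.745 and 0.825 CPM in the Lama4-/- contralateral ones. It had 1.13, 0.957 and 1.02 CPM in the WT ipsilateral hemispheres, against 1.33, 0.980 and 1.14 CPM in the WT contralateral ones. The Lama4-/- hemispheres did not overlap and the WT ones did, and the log2 fold change was 0.59 ± 0.22 in Lama4-/- (edgeR adjusted p = 0.068) and -0.16 ± 0.21 in WT (edgeR adjusted p = 0.679). Bub1 and Aurkb rest on 3 to 15 and 5 to 15 reads a library, and their intervals were wide. The interval of Bub1 ran from -0.000300 to 1.97 in Lama4-/- and from -0.91 to 1.02 in WT.

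Cdc20 and Ube2c work with the anaphase promoting complex, which ends mitosis by marking cyclin B for degradation, and 0 of these 2 were called (0 at an unadjusted p under 0.05 in either genotype, and 0 with DESeq2). Cdc20 had 1.47, 1.34 and 0.828 CPM in the Lama4-/- ipsilateral hemispheres, against 1.64, 0.937 and 1.86 CPM in the Lama4-/- contralateral ones. It had 1.18, 1.52 and 1.69 CPM in the WT ipsilateral hemispheres, against 0.664, 1.17 and 1.07 CPM in the WT contralateral ones. The WT hemispheres did not overlap, and the Lama4-/- ones did, with a mean lower in the ipsilateral libraries. The fitted change of Cdc20 was -0.25 ± 0.30 in Lama4-/- (edgeR adjusted p = 0.584) and 0.60 ± 0.30 in WT (edgeR adjusted p = 0.209) on the log2 scale.

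**Figure D4:**
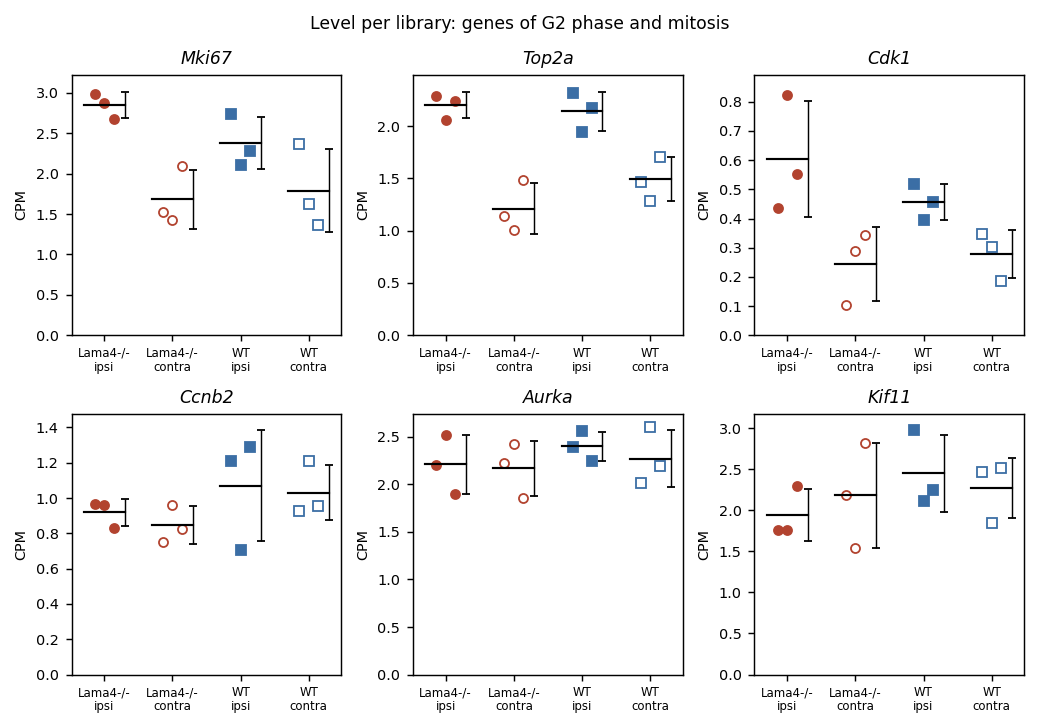
Level in CPM per library of Mki67, Top2a, Cdk1, Ccnb2, Aurka and Kif11 (circles, Lama4-/-; squares, WT; filled, ipsilateral; open, contralateral; bar, mean; whisker, SD of 3 libraries). Top2a and Cdk1 lie higher in the ipsilateral libraries of both genotypes without overlap, and Mki67 does so in Lama4-/- only. Ccnb2, Aurka and Kif11 overlap between hemispheres in both genotypes.

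Counted by overlap alone, 17 members in Lama4-/- and 19 in WT had all 3 ipsilateral libraries above all 3 contralateral ones, where 17.9% and 21.2% of all genes tested did. The reverse held for 1 member, Ccne1, in Lama4-/- and 0 in WT, beside 17.6% and 17.4% of all genes. Summed over the members without Ccnd1, the level was 198 to 224 CPM in Lama4-/- ipsilateral and 165 to 173 CPM in Lama4-/- contralateral libraries, and 202 to 224 CPM in WT ipsilateral and 167 to 168 CPM in WT contralateral ones.

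Other genes of the cycle were tested in the same fits, from lists that hold none of the members. Of 40 other S phase genes 5 rose in each genotype (12.5%) and 0 fell, with a median log2 fold change of 0.10 in Lama4-/- and 0.16 in WT. That share called higher is near that over all genes, 12.8% in Lama4-/- and 9.91% in WT, so the wider S phase list did not repeat the larger share seen among the members. Largest in Lama4-/- were Chaf1b, which places histones on new DNA (1.24 ± 0.36, edgeR adjusted p = 0.0235), the helicase partner Gins2 (1.04 ± 0.27, 0.0123) and the origin licensing factor Cdt1 (0.87 ± 0.17, 0.0024). In WT these were Chaf1b (1.65 ± 0.38, 0.00992), Cdt1 (1.06 ± 0.17, 0.00113) and Gins1 (0.76 ± 0.22, 0.0364). Cdt1 was called with any one library left out in both genotypes, whereas the edgeR adjusted p reached 0.123 for Chaf1b without Lama4-/- ipsilateral library 1 (0.0932 and 0.0703 without contralateral library 2 or 3), 0.0535 for Gins2 without Lama4-/- ipsilateral library 2, and 0.0735 to 0.126 for Gins1 without any single WT library but ipsilateral library 3.

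In G1, the cyclin D partner Cdk6 had a log2 fold change of 2.25 ± 0.29 in Lama4-/- (edgeR adjusted p = 0.000157) and 1.69 ± 0.29 in WT (0.00156). Cdk2, the partner of cyclins E and A, had 0.77 ± 0.15 in Lama4-/- (0.00226) and 0.59 ± 0.15 in WT (0.0155; 0.0669 without WT ipsilateral library 3 and 0.0659 without contralateral library 2). In all 3 of 10 such genes rose in Lama4-/-, with Cdk4 (0.29 ± 0.08, 0.0159; 0.0625 without ipsilateral library 2 and 0.0564 without contralateral library 1), and 4 of 10 in WT, with Cdk4 (0.25 ± 0.08, 0.042; lost without any one library, 0.0595 to 0.131) and the phosphatase Cdc25a (0.57 ± 0.17, 0.0323; lost without any library but ipsilateral library 2, 0.0538 to 0.108). These counts stand beside 12.8% of all genes called higher in Lama4-/- and 9.91% in WT. Myc, a growth factor-induced activator of the cycle, rose by 1.44 ± 0.20 in Lama4-/- (0.000296) and 1.27 ± 0.20 in WT (0.00111). It belongs to neither the E2F nor the Myb family but stands in a list of 15 genes with these factors, where it was the single gene called in Lama4-/- (6.67%, beside 12.8% of all genes). In WT 2 of these 15 rose, the other being E2f4 (0.28 ± 0.07, 0.0132; 0.0762 without contralateral library 3), and 1 fell, the E2F partner Tfdp2 (-0.30 ± 0.06, 0.00637).

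Of 10 CDK inhibitors and pocket proteins tested, the brakes of the cycle, the retinoblastoma relative Rbl1 rose in Lama4-/- (0.92 ± 0.17, edgeR adjusted p = 0.00167) and Rbl2 fell in WT (-0.21 ± 0.06, 0.0366; 0.0595 to 0.149 without any library but contralateral library 1). Of 40 other genes of G2 and mitosis tested, of 43 listed, 7 rose and 2 fell in Lama4-/-, and 5 rose and 0 fell in WT. Called higher were thus 17.5% in Lama4-/- and 12.5% in WT, beside 12.8% and 9.91% of all genes. These counts are no lower than those of the other S phase genes, so the uneven spread of calls over S phase and mitosis among the members was not seen in the wider lists. Gtse1, a microtubule-binding regulator of p53, rose most: its log2 fold change was 2.95 ± 0.50 in Lama4-/- (0.00179) and 3.34 ± 0.52 in WT (0.00151). Ckap2, a microtubule binder, had 1.71 ± 0.29 in Lama4-/- (0.001) and 1.35 ± 0.29 in WT (0.00689). Also among the largest were the kinesin Kif2c in Lama4-/- (1.98 ± 0.37, 0.0022) and the kinetochore subunit Spc25 in WT (1.28 ± 0.27, 0.00544). Spc24, a partner of Spc25 (-0.67 ± 0.19, 0.0202; 0.0504 to 0.0554 without ipsilateral library 3 or contralateral library 1 or 2) and Fzr1, the G1 activator of the anaphase promoting complex (-0.30 ± 0.07, 0.00567), fell in Lama4-/-.

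Whether the stroke change of the members depends on Lama4 was tested as the difference of the stroke changes, Lama4-/- minus WT. By edgeR 0 of 42 members were called, as were 0 of all 15351 genes (0.0%), and DESeq2 and limma voom also called 0 genes. At an unadjusted p under 0.05 stood 1 member, Cenpf (difference 0.75 ± 0.30, 95% interval from 0.09 to 1.40, edgeR adjusted p = 1.0), beside 1.59% of all genes. The difference was above 0 for 21 members, beside 46.7% of all genes, and had a median of -0.01. For the 4 genes called higher in Lama4-/- and not in WT the 95% interval of the difference ran from -0.29 to 1.01 for Mki67, from -0.19 to 0.91 for Top2a, from -0.67 to 1.81 for Cdk1 and from -0.14 to 0.92 for Ccna2, so these genes were not shown to answer differently. The intervals were narrower for some genes called in both genotypes: from -0.33 to 0.35 for Mcm2, from -0.17 to 0.48 for Ccnd1 and from -0.54 to 0.19 for Mcm6. For Mcm3 and Uhrf1, which had the lowest adjusted p of the stroke change, they ran from -0.38 to 0.62 and from -0.79 to 0.44. The interval of Uhrf1 was thus wider than those of Top2a and Ccna2. Across the 42 members the changes of the 2 genotypes, which share no library but 1 fit, correlated at r = 0.708 and had the same sign in 33, beside r = 0.896 over all genes tested; these are descriptions across genes.

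Between genotypes within a hemisphere, 0 members were called. Of 41 members tested in the ipsilateral hemisphere (Bub1 was filtered out for low counts) 0 were called by edgeR and 2 had an unadjusted p under 0.05, beside 1 called gene, Lama4 itself, in 15208 (0.00658%) and 3.49% of all genes at an unadjusted p under 0.05. Of 39 tested in the contralateral hemisphere (without Bub1, Ccnb1 and Aurkb) 0 were called and 3 had an unadjusted p under 0.05, beside 2 called genes in 14958 (0.0134%) and 9.51% at an unadjusted p under 0.05. Fitted differences were above 0 for 19 of 41 members in the ipsilateral hemisphere, beside 49.9% of all genes, and for 15 of 39 in the contralateral one, beside 51.7%. DESeq2 and limma voom called 0 members in either hemisphere. In the authors' deposited tables of Lama4-/- over WT, 0 of 42 members in the ipsilateral table and 0 of the 37 with an adjusted p in the contralateral table were under 0.05; their lowest adjusted p was 0.854 in the ipsilateral and 0.256 in the contralateral table.

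The largest difference between genotypes was that of Bub1b (BubR1), which holds back anaphase until chromosomes are attached. It had 4.11, 2.25 and 1.81 CPM in Lama4-/- ipsilateral libraries, against 5.30, 4.78 and 5.49 CPM in WT ipsilateral ones. In the contralateral hemisphere it had 4.10, 2.31 and 1.92 CPM in Lama4-/- libraries, against 5.81, 4.41 and 5.73 CPM in WT ones. All Lama4-/- libraries lay below all WT libraries of the same hemisphere, pools 2 and 3 of Lama4-/- were far below pool 1, and each pool gave nearly the same level in its 2 hemispheres. The log2 fold change, Lama4-/- over WT, was -0.92 ± 0.28 in the ipsilateral (edgeR adjusted p = 0.989) and -0.94 ± 0.26 in the contralateral hemisphere (edgeR adjusted p = 0.51). With the replicate number as a block, the contralateral value passed (edgeR adjusted p = 0.0478). That block joins same-numbered libraries of different genotypes, which share no mice, so it is not a pairing that the labels give. The 2 hemispheres are taken to come from the same pools, so they do not count as separate observations of this difference.

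Cenpf had 0.623, 0.745 and 0.825 CPM in Lama4-/- contralateral libraries, against 1.33, 0.980 and 1.14 CPM in WT contralateral ones, one of the 3 members at an unadjusted p under 0.05, with a log2 fold change of -0.68 ± 0.22 (edgeR adjusted p = 0.51). Ect2, which directs the cleavage furrow, had 1.01, 1.03 and 0.893 CPM in Lama4-/- contralateral libraries, against 0.607, 0.792 and 0.513 CPM in WT contralateral ones (0.65 ± 0.24, edgeR adjusted p = 0.51). The groups did not overlap for either gene in that hemisphere, and overlapped for both in the other. Plk1, a kinase of mitotic entry, had 1.35, 1.48 and 1.29 CPM in Lama4-/- ipsilateral libraries, against 2.39, 1.80 and 1.72 CPM in WT ipsilateral ones (-0.52 ± 0.20, edgeR adjusted p = 0.989). Counted over the members tested, groups that did not overlap were found for 2 higher and 2 lower of 41 in the ipsilateral hemisphere, beside 3.85% and 4.18% of all genes, and for 2 higher and 3 lower of 39 in the contralateral one, beside 8.36% and 7.54%.

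**Figure D5:**
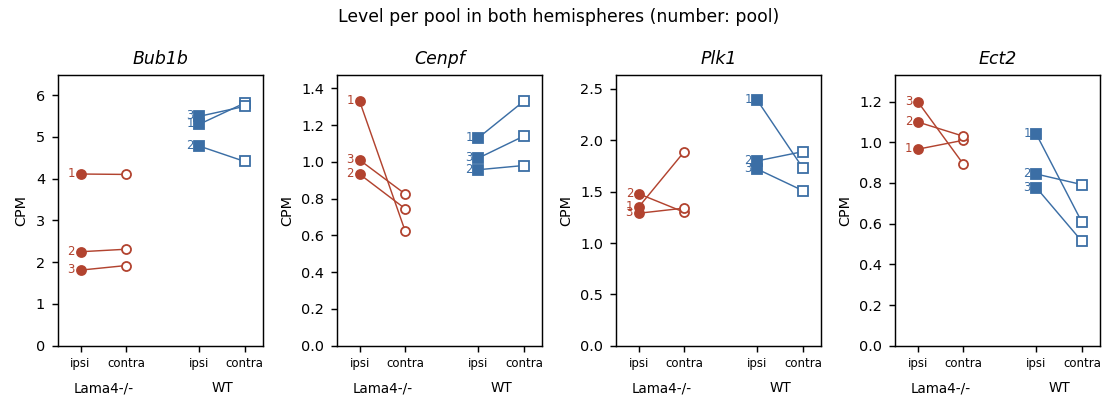
Level in CPM of Bub1b, Cenpf, Plk1 and Ect2 in each library, with the hemispheres of 1 pool of mice joined by a line (circles, Lama4-/-; squares, WT; filled, ipsilateral; open, contralateral; the number is that of the libraries, taken as the pool). For Bub1b the lines are nearly flat and all 6 Lama4-/- libraries lie below all 6 WT libraries.

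The 10 members called in both genotypes overlapped between Lama4-/- and WT libraries of the same hemisphere, with Mcm2 in the ipsilateral hemisphere as the exception. Uhrf1 averaged 2.63 ± 0.336 CPM in Lama4-/- ipsilateral and 2.93 ± 0.535 CPM in WT ipsilateral libraries, and Ccnd1 averaged 76.4 ± 5.02 CPM in Lama4-/- ipsilateral and 80.9 ± 2.50 CPM in WT ipsilateral ones (SD, n = 3 each). Mcm2 averaged 9.71 ± 0.0978 CPM in Lama4-/- ipsilateral and 8.76 ± 0.334 CPM in WT ipsilateral libraries, a log2 fold change of 0.15 ± 0.09 (edgeR adjusted p = 0.989).

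Markers of several cell types differed between hemispheres beside the members, and their part in the members' changes was not tested. The counts of markers here and below stand beside 12.8% of all genes called higher and 10.5% lower in Lama4-/-. In WT these shares were 9.91% and 5.47%. The counts of microglial markers and of neuroblast and progenitor markers lie near these shares. Reactive astrocyte markers rose in 10 of 10 genes in Lama4-/- and 9 of 10 in WT, and summed to 1580 to 2500 CPM in Lama4-/- ipsilateral, against 354 to 653 CPM in Lama4-/- contralateral libraries, and to 1550 to 2270 CPM in WT ipsilateral, against 398 to 511 CPM in WT contralateral ones. Endothelial markers rose in 5 of 9 genes in Lama4-/- and 4 of 9 in WT, and summed to 270 to 377 CPM in Lama4-/- ipsilateral, against 176 to 228 CPM in Lama4-/- contralateral libraries, and to 225 to 309 CPM in WT ipsilateral, against 177 to 207 CPM in WT contralateral ones. Neither sum overlapped between hemispheres. Microglial markers went both ways, with 2 higher and 2 lower of 10 in Lama4-/- and 2 higher and 1 lower in WT, and summed to 395 to 438 CPM in Lama4-/- ipsilateral, against 294 to 375 CPM in Lama4-/- contralateral libraries, and to 373 to 437 CPM in WT ipsilateral, against 261 to 341 CPM in WT contralateral ones.

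Of 7 monocyte and macrophage markers tested, of 10 listed, 6 rose in Lama4-/- and 3 in WT, and the list summed to 186 to 256 CPM in Lama4-/- ipsilateral, against 114 to 115 CPM in Lama4-/- contralateral libraries, and to 179 to 180 CPM in WT ipsilateral, against 108 to 131 CPM in WT contralateral ones. Ly6c2 was at 0 in all WT contralateral libraries. Of 5 neutrophil markers tested, of 10 listed, 3 rose in Lama4-/- and 0 were called by edgeR in WT (1 at an unadjusted p under 0.05, and 1 with DESeq2), and the list summed to 7.45 to 22.4 CPM in Lama4-/- ipsilateral, against 6.01 to 7.08 CPM in Lama4-/- contralateral libraries, and to 7.05 to 7.94 CPM in WT ipsilateral, against 6.52 to 7.11 CPM in WT contralateral ones. Ly6g was at 0 in all WT contralateral libraries. The neutrophil sum stood highest in Lama4-/- ipsilateral library 2. Of 10 lymphocyte markers 2 could be tested, of which Cd4 fell in both genotypes, and the list summed to 2.50 to 4.01 CPM in Lama4-/- ipsilateral, against 7.50 to 9.16 CPM in Lama4-/- contralateral libraries, and to 2.02 to 3.32 CPM in WT ipsilateral, against 5.43 to 7.43 CPM in WT contralateral ones. Cd3d was at 0 in all Lama4-/- contralateral libraries.

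Markers of oligodendrocyte precursors, which divide in the normal adult brain, were not called higher: 4 of 8 fell in Lama4-/- and 2 of 8 in WT, and they summed to 259 to 336 CPM in Lama4-/- ipsilateral, against 330 to 386 CPM in Lama4-/- contralateral libraries, and to 312 to 331 CPM in WT ipsilateral, against 333 to 371 CPM in WT contralateral ones. Of 11 neuroblast and progenitor markers 2 rose in each genotype and 1 fell in WT, and they summed to 278 to 305 CPM in Lama4-/- ipsilateral, against 251 to 286 CPM in Lama4-/- contralateral libraries, and to 278 to 323 CPM in WT ipsilateral, against 273 to 301 CPM in WT contralateral ones. Neuron markers fell in 4 of 8 genes in Lama4-/- and 5 of 8 in WT. Of the erythroid list 2 genes were tested and 0 called (0 at an unadjusted p under 0.05, and 0 with DESeq2), with sums between 2.63 and 5.38 CPM in all libraries. Hba-a1 was at 0 in every library but WT ipsilateral library 3.

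Reads could not be assigned with equal certainty to all members. Strandedness, which bears on overlaps with genes on the opposite strand, is not given in the sources used here. In the GENCODE vM21 annotation of mm10, 10 members share exonic bases with another coding gene: Ccna2, Ccnd1, Ccne2, Mcm7, Kif20a, Cdc20, Ube2c, Nusap1, Prc1 and Foxm1. All of these but Foxm1 overlap a gene on the opposite strand. For 4 members, Ccnb1, Ccnb2, Pcna and Tyms, a named pseudogene exists whose reads may be split with the gene. Of the 5 members called in both genotypes with any single library left out, Ccnd1 is among them, while Uhrf1 (chromosome 17, 56303321 to 56323486), Mcm2 (chromosome 6, 88883474 to 88898780), Mcm3 (chromosome 1, 20802968 to 20820312) and Mcm6 (chromosome 1, 128331590 to 128359664) are not.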

How the data were processed

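RNA of 12 hemisphere pools was sequenced. Per the submitters' processing notes, the tools named are featureCounts 1.6.4, STAR 2.6.0, DESeq2, FastQC 0.72 and bcl2fastq, and the genome build is mm10. The authors deposited unnormalized counts, whole numbers for each gene and library. The authors' deposited tables also give log2 fold changes and p-values of Lama4-/- over WT in each hemisphere, which served only for the comparison named in the text. A 10x kit for single cells appears in the labels; how the bulk libraries were prepared, the annotation and the strandedness are not settled by the sources used here.

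Counts were tested with edgeR 4.0.16 (filterByExpr, TMM, robust quasi-likelihood F test) in R 4.3.3, with Benjamini-Hochberg adjustment over all genes tested and a call at an adjusted p under 0.05. Stroke comparisons and their difference used all 12 libraries as 4 group means, and genotype comparisons used the 6 libraries of a hemisphere. SE is the log2 fold change divided by the root of its F value, and intervals are 95%. Alternatives were DESeq2 1.42.0, limma 3.58.1 (voom), RLE factors, no filter, a filter of 1 CPM in 3 libraries, fits on the 6 libraries of a genotype or on all 12, a replicate block and each library left out. The edgeR script was tested on simulated data. Replicates differed by more than sampling noise. The labels number the libraries in each group without saying that a number marks a pool. Same-numbered hemispheres of a genotype were taken as pairs because their deviations from the group means correlated in every pair, at r = 0.152 to 0.453 in Lama4-/- and 0.295 to 0.429 in WT. Hemispheres of different numbers correlated at no more than 0.027 in Lama4-/- and 0.078 in WT. Between genotypes, same-numbered contralateral libraries correlated at 0.203 to 0.371. Lama4-/- ipsilateral library 3 and WT ipsilateral library 1, which share no mice, reached r = 0.455, so such values alone do not prove a shared pool.

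The members and the lists were chosen with earlier results of these data known. Named were members called in a comparison and, of the others, the 5 with the largest fitted change; of the other cell cycle lists, at most 3 called genes in each direction. Ccnb2, Ccne2, Rrm2, Aurka, E2f1, Ect2, Kif11, Nusap1 and, where not called, Mcm7 and Pcna were named for their role after their values were seen. Promoters are from RefSeq, matched by symbol.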

Additional observations from a re-analysis of the deposited data

How the results depend on the processing

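Over the alternatives run, called members kept their call in 310 cases, lost it in 65 and changed direction in 0. In Lama4-/- 14 to 16 members were called with RLE factors, DESeq2, voom, no filter or the stricter filter, against 15 in the text, and 10 in a fit on the 6 Lama4-/- libraries, without Cdk1, Ccna2, Ccne1, Tyms and Hells. In WT these settings called 12 to 13 members, against 14, and the fit on the 6 WT libraries 12. Over all genes DESeq2 called 4020 and voom 3600 in Lama4-/-, against 3580 by edgeR in the text. In WT DESeq2 called 2962 and voom 2305 of all genes, against 2361. With the pool as a replicate block 17 members were called in each genotype, while the share of all genes called rose to 32.0% in Lama4-/- and 23.5% in WT. Leaving out each library in turn gave 10 to 14 called members in Lama4-/- and 8 to 10 in WT, with 8 without WT ipsilateral library 3 or contralateral library 1. Over all genes these fits called 2286 to 3618 in Lama4-/- and 1347 to 1740 in WT, so calls beyond the members changed too. The causes were not tested. The difference of the stroke changes and both genotype comparisons gave 0 called members in all such fits. With the replicate number as a block, 1 member was called between genotypes in the contralateral hemisphere (Bub1b) and 0 in the ipsilateral one, where same-numbered libraries did not all correlate (r = -0.159, 0.438 and 0.215). This block joins libraries that share no mice, and the share of all genes it called is not given here. The stricter filter removes Cdk1 and Cdc6. With 3 pools a group and 2 to 50 reads for several mitotic members, moderate changes of these genes could be missed, which was not tested. Other mitotic members that were not called had more reads, such as Prc1 with 74 to 142 a library.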
